A study of Arabidopsis arenosa x Arabidopsis thaliana and Arabidopsis thaliana and Arabidopsis arenosa with 5 samples.

Results

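The total level of each gene, the A. thaliana allele plus the A. arenosa allele, was compared between rosette leaves of an F8 allotetraploid and of a resynthesized F1 allotetraploid. Values were RPKM (read counts divided by transcript length and by the mapped reads), compared as log2(RPKM + 1), a scale that understates the differences of low genes. Members of the comparison were all transcripts listed for both generations with a total of at least 5 RPKM in F8 or in the mean of the F1 columns. That gave 13026 of the 14298 transcripts listed for both, and of the 38431 transcripts in the series. With 1 transcript taken for each gene, 10292 genes were compared. F8 had 1 column of totals and F1 had 3, so a gene was called higher or lower only where F8 lay at least 2-fold outside the whole range of the F1 columns, which is a rule of size and not a test. That F8 is the lowest or the highest column in a called gene follows from this rule.

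Messenger RNA had been sequenced from rosette leaves, taken before bolting, of 5 kinds of tetraploid plant, and all plants had 16 h of light at 22 °C and 8 h of dark at 20 °C. The F8 plants were an allotetraploid of the eighth generation, 6 to 7 weeks old. A. suecica, a natural allotetraploid of these 2 ancestries, was also 6 to 7 weeks old, as was the autotetraploid A. arenosa (Care-1). The autotetraploid A. thaliana (Landsberg erecta) was 3 to 4 weeks old. The F1 plants, against which F8 is set here, were allotetraploids newly made from these species, 6 to 7 weeks old. Nothing in the sources used here says whether the 3 F1 columns came from separate plants, how many plants were pooled, or how many F8 lines there were, so the spread between F1 columns may be technical and the F8 values may be those of 1 line. Leaf genes were abundant in every column: RBCS1A, a small subunit of Rubisco, stood at 12514 RPKM in F8 and at 1572, 3825 and 7693 RPKM in the F1 columns, and 0 of 8 flower identity genes were listed for both generations. Fewer cells of a type and less RNA per cell cannot be told apart in whole leaves.

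An allotetraploid carries the chromosome sets of both parental species in 1 nucleus, so each gene usually has an allele from each species. In newly made allotetraploids the levels of many genes are known to depart from those of the parents, and lines kept for several generations are used to see which levels persist. Leaves also carry a large set of genes that answer touch, wounding, cold and microbes within minutes to hours. These include WRKY, ERF, NAC and zinc finger transcription factors, calmodulin-like calcium sensors, JAZ repressors and cell wall enzymes. Many promoters of such genes hold the W-box, the element that WRKY factors bind, and some hold the core of the rapid stress response element.

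F8 leaves had far more genes at least 2-fold below the F1 range than at least 2-fold above it. At any distance the split was nearly even, with 3139 genes below the range and 2879 above it. Totals were called lower in F8 in 214 genes (2.08% of those compared) and higher in 27 genes (0.262%), 241 genes (2.34%) in all. The lower genes farthest outside the F1 range were PHI-1, NUDT4, AT3G47540, CAF1b and ERF-1, and the lower set held transcription factors, calcium sensors and touch genes of the stress answer described above. The higher genes included the ribosomal protein gene RPS5A, 3 chaperonin genes and 2 alpha-tubulin genes. Counted over transcripts, 263 (2.02%) were lower and 45 (0.345%) were higher, 308 (2.36%) in all. With every column scaled to the same summed RPKM the split was 446 lower and 4 higher, and the median difference over all genes moved to -0.42 on the log2 scale, against -0.002 as deposited, so that every difference below is also to be read relative to that shift.

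**Figure D1:**
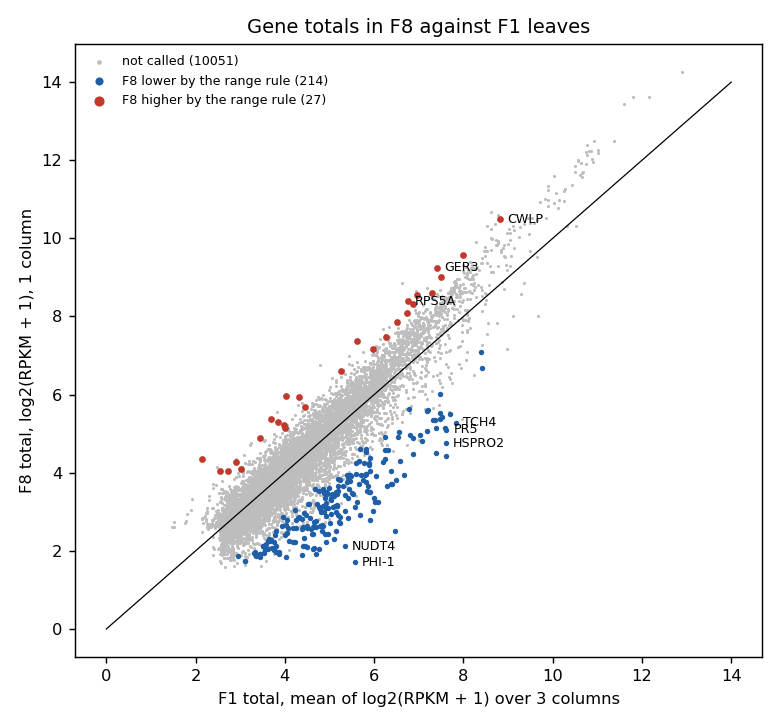
Total of each of the 10292 genes in F8 (vertical, 1 column) against the mean of the 3 F1 columns (horizontal), both as log2(RPKM + 1), with the line of equal level. The 214 genes called lower lie below the line over the whole span of levels, while the 27 called higher are few, and the highest genes of all lie above the line without a call.

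The promoters of 3 of the 12 genes farthest below the F1 range are shown because they hold the elements named above, 300 bases before the annotated gene start, read 5′ to 3′ from TAIR10.1 (RefSeq), which is the sequence of A. thaliana Columbia and not of the plants' own alleles. Capitals mark W-boxes (TTGACC or TTGACT) and the core of the rapid stress response element (CGCGTT), on either strand.
PHI-1 promoter, chr1:12851683-12851982, plus strand: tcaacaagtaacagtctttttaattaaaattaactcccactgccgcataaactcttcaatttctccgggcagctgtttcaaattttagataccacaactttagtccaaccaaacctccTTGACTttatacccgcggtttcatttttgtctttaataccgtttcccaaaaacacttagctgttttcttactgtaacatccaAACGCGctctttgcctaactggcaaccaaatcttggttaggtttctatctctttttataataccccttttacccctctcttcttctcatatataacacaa
PUB23 promoter, chr2:15084560-15084859, minus strand: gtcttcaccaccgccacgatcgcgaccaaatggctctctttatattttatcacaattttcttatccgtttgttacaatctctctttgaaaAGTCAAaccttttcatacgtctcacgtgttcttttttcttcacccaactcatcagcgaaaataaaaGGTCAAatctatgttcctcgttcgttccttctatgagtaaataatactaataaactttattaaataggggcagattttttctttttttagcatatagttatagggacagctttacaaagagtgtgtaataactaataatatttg
NUDT4 promoter, chr1:6299369-6299668, plus strand: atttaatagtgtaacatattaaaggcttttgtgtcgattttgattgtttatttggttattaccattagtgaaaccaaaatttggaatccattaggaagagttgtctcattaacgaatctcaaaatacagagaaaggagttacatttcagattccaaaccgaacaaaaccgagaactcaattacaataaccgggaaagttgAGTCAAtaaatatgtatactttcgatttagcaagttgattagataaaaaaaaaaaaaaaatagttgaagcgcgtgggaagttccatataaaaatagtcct
PHI-1 holds 1 W-box and 1 stress element core, PUB23 holds 2 W-boxes, and NUDT4 holds 1 W-box. The other 9 of the 12 hold neither element in this window. Among these 9, the windows of AT3G47540, AT3G04640 and AT4G13505 are not free of other annotated genes.

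Over all lower genes with a promoter in the annotation, 102 of 213 (47.9%) held a W-box, against 3235 of 10244 promoters (31.6%) of all genes compared and 3 of 27 (11.1%) of the higher genes. The stress element core, chosen after seeing which genes were called, stood in 23 of the 213 (10.8%) and in 345 of all promoters (3.37%), and in 0 of the 27 higher ones. Other elements searched on both strands were the G-box CACGTG, in 20 lower promoters (9.39%) and 8.04% of all promoters, and the evening element AAAATATCT, in 6 (2.82%) and 3.17%. The cold element GCCGAC stood in 10 lower promoters (4.69%) and in 3.42% of all promoters. The heat shock element (GAA, TTC and GAA with 2 free bases between them) stood in only 4 lower promoters (1.88%) and in 50 of all promoters (0.488%). The light element GATAAG stood in 36 lower promoters (16.9%) and in 15.1% of all promoters. These are matches of letters and not shown binding sites, and each element was counted on its own where matches overlapped.

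PHI-1, named after a tobacco gene induced by phosphate, was the gene farthest below the F1 range. Its total was 2.27 RPKM in F8 and 43.6, 67.1 and 34.4 RPKM in the F1 columns. F8 was low and the F1 columns were all high, as the call requires, with a log2 difference of -3.86. NUDT4, a Nudix hydrolase, stood at 3.36 RPKM in F8 and at 31.6, 31.7 and 61.6 RPKM in F1. The lowest F1 column was thus still well above F8. CAF1b, a subunit of the complex that shortens poly(A) tails, stood at 8.53 RPKM in F8 and at 52.2, 54.8 and 89.8 RPKM in F1.

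ERF-1, an ethylene response factor that binds the GCC box, had 5.87 RPKM in F8 and 83.4, 66.9 and 36.2 RPKM in F1. PUB23, a ubiquitin ligase that restrains immune signalling, had 6.17 RPKM in F8 and 33.0, 41.2 and 53.0 RPKM in F1. HSPRO2, the ortholog of a nematode resistance gene of sugar beet, had 26.1 RPKM in F8 and 124, 184 and 322 RPKM in F1. In each of these genes F8 was low and all F1 columns were high, as the call requires. AT3G47540, of the chitinase family, had 4.73 RPKM in F8 and 110, 36.9 and 164 RPKM in F1, the widest scatter between F1 columns of the genes in this paragraph. AT1G24140, a matrixin-type metalloprotease, had 3.69 RPKM in F8 and 32.8, 22.5 and 34.8 RPKM in F1. Also among the 12 were the glycine-rich protein gene AT3G04640, AT2G32190 with a cysteine-rich transmembrane domain, AT4G13505 and the cell wall gene XTH24.

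**Figure D2:**
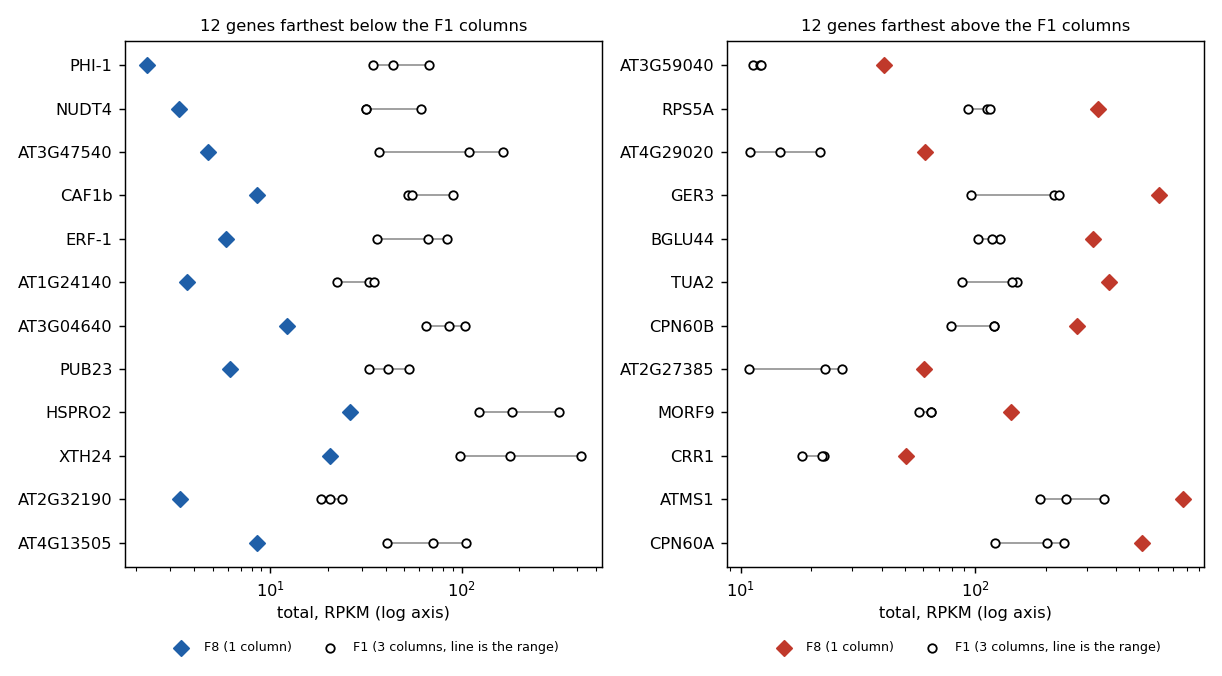
Totals in RPKM on a log axis of the 12 genes farthest below (left) and above (right) the F1 range, with the F8 value as a filled diamond and the 3 F1 columns as open circles joined by their range. PHI-1 stands at 2.27 RPKM in F8, against 34.4 to 67.1 RPKM in F1, and AT3G59040 at 40.9 RPKM in F8, against 11.2 to 12.2 RPKM in F1.

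Genes of salicylic acid signalling and immunity were the list farthest below F1. Of 19 members compared (26 in the list), 9 were called lower and 0 higher, beside 2.08% lower of all genes. The median log2 difference was -1.61, against -0.002 over all genes. F8 lay below every F1 column in 17 of the 19, beside 30.5% of all genes. Without F1 replicate 2, the lowest F1 column of PR5 and BGL2, 15 of the 19 were called lower. Leaving it out narrows the range of every gene, and over all genes the lower calls rose from 214 to 406. The called members were WRKY33, WRKY40, WRKY46, WRKY53, WRKY54, WRKY70, CBP60G, BGL2 and PR5. With 5 in place of 1 added to the RPKM, WRKY33, WRKY46, WRKY54 and BGL2 lost their calls. The median was lower in F8 than in each F1 column taken alone, by -2.06, -1.05 and -1.70 against F1 replicates 1, 2 and 3.

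WRKY40, a WRKY factor that dampens immune signalling, had 21.2 RPKM in F8 and 91.5, 90.0 and 190 RPKM in F1. WRKY70, which acts in salicylic acid responses, had 14.5 RPKM in F8 and 95.6, 40.3 and 43.7 RPKM in F1. WRKY33, needed for camalexin synthesis, had 22.8 RPKM in F8 and 75.4, 48.1 and 133 RPKM in F1. F8 was the lowest of the 4 columns in all 3 genes, by the least margin in WRKY33, which lost its call with each column centred on its median. CBP60G, a calmodulin-binding regulator that turns on salicylic acid synthesis, had 3.97 RPKM in F8 and 60.2, 14.9 and 39.8 RPKM in F1. PR5, a thaumatin-like marker of the response, had 33.4 RPKM in F8 and 534, 82.4 and 169 RPKM in F1. BGL2, which encodes the beta-glucanase PR2, had 21.7 RPKM in F8 and 384, 47.3 and 254 RPKM in F1. The F1 columns of PR5 and BGL2 differed widely among themselves, with F1 replicate 1 the highest and replicate 2 the lowest. Of the 10 members not called, EDS1 and NPR1 lay nearest to F1: EDS1, a central regulator of immunity, had 13.2 RPKM in F8 and 37.3, 10.4 and 15.2 RPKM in F1, inside the F1 range, and NPR1, the salicylic acid receptor, had 14.8 RPKM in F8 and 23.9, 17.9 and 23.9 RPKM in F1.

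Of touch genes, known to respond to mechanical stimulation, 2 of 4 compared were called lower and 0 higher, beside 2.08% lower of all genes. The median log2 difference was -1.32. F8 lay below every F1 column in 3 of the 4, beside 30.5% of all genes. TCH4, a xyloglucan endotransglucosylase, had 37.8 RPKM in F8 and 162, 275 and 263 RPKM in F1. TCH2, a calmodulin-like protein, had 22.7 RPKM in F8 and 70.1, 71.5 and 84.4 RPKM in F1, with the F1 columns close together. TCH3, also a calmodulin-like protein, had 103 RPKM in F8 and 229, 147 and 245 RPKM in F1, below all F1 columns but short of a call. CAM2, a calmodulin, had 153 RPKM in F8 and 115, 153 and 320 RPKM in F1, inside the range.

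Of ethylene genes, 3 of 15 compared were called lower and 0 higher, beside 2.08% lower of all genes. The median log2 difference was -0.27. ACS6, an enzyme of ethylene synthesis, had 9.21 RPKM in F8 and 35.0, 28.0 and 32.8 RPKM in F1. ERF2 had 15.4 RPKM in F8 and 80.0, 53.8 and 47.6 RPKM in F1, and ERF-1 is given above. F8 was the lowest of the 4 columns in all 3. EFE, an enzyme of the last step of ethylene synthesis, had 407 RPKM in F8 and 262, 272 and 548 RPKM in F1, inside the range.

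Of jasmonate and wounding genes, 2 of 19 were called lower, the repressors JAZ1 and JAZ5, and 0 higher, beside 2.08% lower of all genes. The median was -0.14, and -0.61 without F1 replicate 1. Without replicate 2, 4 of the 19 were called lower, while over all genes the lower calls rose from 214 to 406. JAZ1 had 29.2 RPKM in F8 and 63.5, 65.3 and 102 RPKM in F1. JAZ5 had 19.7 RPKM in F8 and 41.0, 51.4 and 95.7 RPKM in F1. Both were lowest in F8 and both lost their calls with each column centred on its median. LOX2, a chloroplast lipoxygenase of jasmonate synthesis, had 1563 RPKM in F8 and 174, 357 and 1358 RPKM in F1, above every F1 column without a call. LOX4, another lipoxygenase, had 32.8 RPKM in F8 and 121, 53.7 and 119 RPKM in F1, below every F1 column without a call.

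Of cold and abscisic acid genes, 2 of 14 were called lower and 0 higher, beside 2.08% lower of all genes. The median was 0.20, which was -0.25 with each column scaled to the same sum and -0.18 without F1 replicate 1. Against replicates 1, 2 and 3 taken alone it was 1.54, -0.06 and -0.18. Both called genes were zinc finger factors of several stresses. RHL41, also called ZAT12, had 13.1 RPKM in F8 and 46.7, 101 and 146 RPKM in F1. STZ, also called ZAT10, had 34.4 RPKM in F8 and 89.3, 183 and 278 RPKM in F1. F8 was the lowest column in both, with F1 replicate 1 the nearest to it. RD20, a caleosin of drought and abscisic acid responses, had 126 RPKM in F8 and 13.4, 54.2 and 101 RPKM in F1, above every F1 column without a call. Among senescence and dark-induced genes, 2 of 8 were called lower, beside 2.08% of all genes. The median of this list was -0.49, and -0.88 without F1 replicate 1. Against replicates 1, 2 and 3 taken alone it was 0.07, -0.74 and -1.02. The 2 called senescence genes were XTH24 and SAG21. XTH24 had 20.6 RPKM in F8 and 97.9, 178 and 417 RPKM in F1, and SAG21 had 45.3 RPKM in F8 and 377, 119 and 122 RPKM in F1. SAG12, SAG13, NAP and ORE1, markers of late senescence, were not in both tables.

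**Figure D3:**
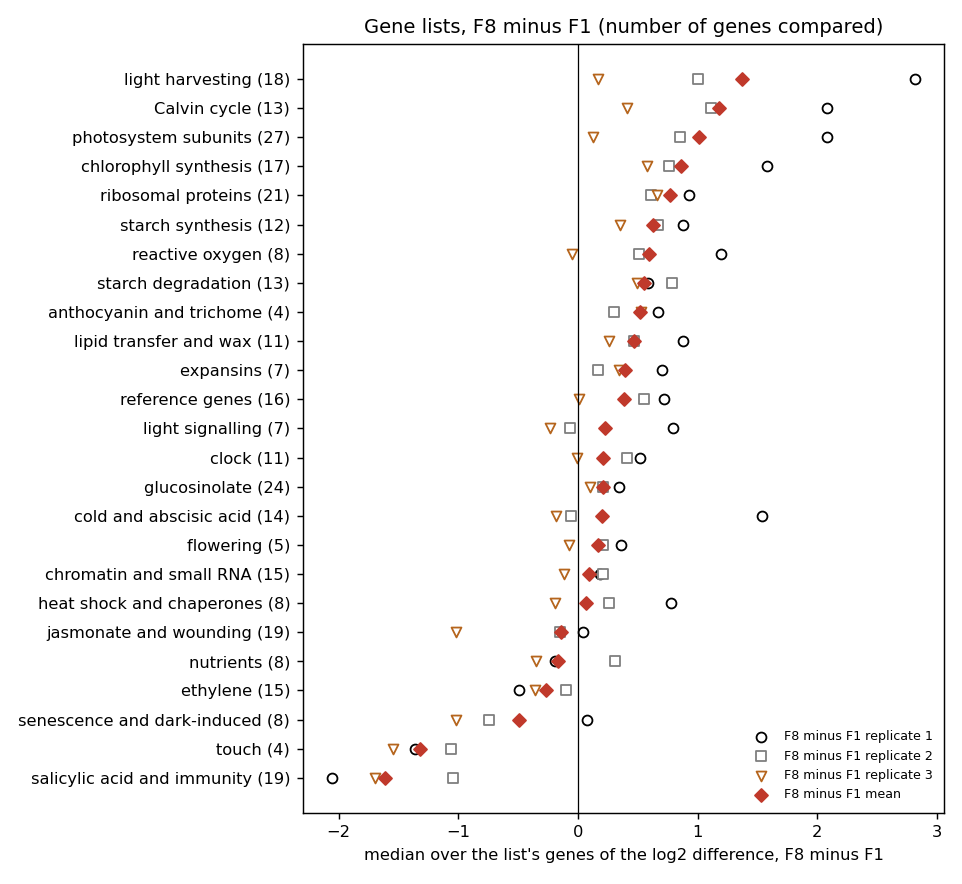
Median over each list's genes of the log2 difference F8 minus F1, for lists with at least 4 genes compared, against the F1 mean (filled diamonds) and against each F1 replicate alone (open symbols). The salicylic acid and touch lists lie left of 0 against all 3 replicates, at -1.61 and -1.32 against the mean, while light harvesting reaches 1.37 against the mean but spreads over 2.82, 1.00 and 0.16 against replicates 1, 2 and 3.

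Gene families named by words in the annotation, chosen after the calls were seen, are given as a description of the lower set. Of 23 WRKY factors compared 7 were lower, of 18 NAC factors 6, of 38 AP2/ERF factors 7, of 44 EF-hand and calmodulin-like proteins 12, and of 22 C2H2 zinc fingers 4, with 0 higher in each. Among MYB factors 4 of 21 were lower, among MAP kinase cascade proteins 4 of 31, among JAZ repressors 2 of 6, and among xyloglucan endotransglucosylases 2 of 11. The large families of receptor-like kinases and of U-box and RING/U-box proteins had 1 of 117 and 3 of 121 lower, beside 2.08% of all genes. NAC090 had 2.79 RPKM in F8 and 93.9, 8.66 and 17.8 RPKM in F1, with F1 replicate 1 far above the other columns. CML38, a calmodulin-like protein, had 8.50 RPKM in F8 and 35.0, 46.9 and 68.2 RPKM in F1. MPK11, a MAP kinase of immune signalling, had 13.1 RPKM in F8 and 80.1, 27.4 and 67.7 RPKM in F1. F8 was the lowest column in these 3 genes, which were picked after their values were seen. AT4G22592 and TPPG, genes that share a locus, had identical values in every column and are counted as 2 of the 214.

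Among the higher genes, AT3G59040, a tetratricopeptide repeat protein, lay farthest above the F1 range. Its total was 40.9 RPKM in F8 and 11.2, 12.1 and 12.2 RPKM in the F1 columns, with a log2 difference of 1.71. The F1 columns were nearly equal and F8 stood alone. The other named genes were GER3, a germin-like protein of the cell wall space, with 609 RPKM in F8 and 216, 228 and 95.6 RPKM in F1, and BGLU44, a beta-glucosidase, with 318 RPKM in F8 and 127, 103 and 118 RPKM in F1. ATMS1, a methionine synthase, had 768 RPKM in F8 and 189, 355 and 244 RPKM in F1. The glycine-rich protein gene AT4G29020 had 61.1 RPKM in F8 and 14.8, 21.7 and 10.9 RPKM in F1. F8 was the highest column in each of these genes.

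Ribosomal protein genes of the cytosol had 1 of 21 compared members called higher and 0 lower, beside 0.262% higher of all genes. But 20 of the 21 lay above every F1 column, beside 28.0% of all genes. The median log2 difference was 0.77, and 0.33 with each column scaled to the same sum, with -0.42 over all genes. Without F1 replicate 1, and likewise without replicate 3, 2 were called higher. The higher calls over all genes rose from 27 to 41 without replicate 1 and to 129 without replicate 3. RPS5A, of the small subunit, had 335 RPKM in F8 and 93.1, 112 and 115 RPKM in F1. RPL23AA had 195 RPKM in F8 and 106, 76.5 and 92.3 RPKM in F1, above all columns without a call. At the other end RPL10B had 34.9 RPKM in F8 and 33.1, 43.0 and 29.2 RPKM in F1, inside the range. RPS5A has a close paralog, so reads of the copies may be divided in ways the sources do not describe.

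Chaperonins of the cpn60 family, which fold newly made proteins, had 3 of 14 members called higher, with 13 of 14 above every F1 column. Over all genes 0.262% were called higher and 28.0% lay above every F1 column. The median log2 difference of the family was 0.48, and 0.06 with each column scaled to the same sum, with -0.42 over all genes. CPN60A, of the chloroplast chaperonin that folds Rubisco, had 515 RPKM in F8 and 121, 202 and 239 RPKM in F1. CPN60B, its beta partner, had 271 RPKM in F8 and 79.2, 121 and 120 RPKM in F1. Cpn60beta2 had 96.8 RPKM in F8 and 35.2, 47.8 and 30.9 RPKM in F1. Of 17 tubulins 2 were called higher and 11 lay above every F1 column, beside 0.262% and 28.0% of all genes. TUA2 had 373 RPKM in F8 and 87.7, 151 and 144 RPKM in F1, and TUA4 had 384 RPKM in F8 and 109, 189 and 184 RPKM in F1. TUA2 and TUA4 are near copies of each other, so how their reads were divided is uncertain. With every column scaled to the same sum, all but 4 of the 27 higher genes lost their calls, the chaperonins and tubulins among them, and the 4 that kept it were RPS5A, AT4G29020, ESM1 and CWLP.

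AT2G27385, of the pollen Ole e 1 and extensin family, had 60.6 RPKM in F8 and 10.9, 27.0 and 23.0 RPKM in F1. MORF9, a factor of RNA editing in plastids, had 143 RPKM in F8 and 57.5, 64.8 and 64.7 RPKM in F1. CRR1, needed for the chloroplast NDH complex, had 50.6 RPKM in F8 and 18.21, 22.71 and 22.35 RPKM in F1. All 3 genes were highest in F8, and the F1 columns lay close together in MORF9 and CRR1. STOMAGEN, a secreted peptide that raises stomatal density, had 28.8 RPKM in F8 and 12.9, 10.3 and 7.30 RPKM in F1. CWLP, a proline-rich cell wall protein, had 1444 RPKM in F8 and 311, 424 and 685 RPKM in F1. F8 was the highest column in both. FLA8, an arabinogalactan protein, had 233 RPKM in F8 and 60.2, 109 and 115 RPKM in F1, and like STOMAGEN it was picked after its values were seen. PRE1, a helix-loop-helix protein of cell elongation, had 19.3 RPKM in F8 and 0.350, 7.71 and 6.34 RPKM in F1, with F1 replicate 1 far below the others.

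Of glucosinolate genes, 1 of 24 was called higher and 1 lower, beside 0.262% higher and 2.08% lower of all genes. The median was 0.21, and -0.22 with each column scaled to the same sum. Without F1 replicate 2, 3 were called lower, and without replicate 3, 2 were called higher. Over all genes the lower calls rose from 214 to 406 without replicate 2, and the higher calls from 27 to 129 without replicate 3. ESM1, which favours isothiocyanates over nitriles when glucosinolates break down, had 164 RPKM in F8 and 35.3, 41.1 and 77.4 RPKM in F1. ESP, which favours nitriles, had 1644 RPKM in F8 and 134, 350 and 1254 RPKM in F1, above every column without a call. MYB51, which activates indole glucosinolate synthesis, had 5.54 RPKM in F8 and 59.1, 19.7 and 25.7 RPKM in F1. CYP83B1, an enzyme of that branch, had 67.3 RPKM in F8 and 179, 91.7 and 228 RPKM in F1, below every column without a call. ESM1 in A. suecica stood at 1978 RPKM, far above F8 and F1.

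Photosynthesis genes lay above the F1 mean in F8 with 0 calls. The median log2 difference was 1.37 over 18 light harvesting genes, 1.01 over 27 photosystem genes and 1.18 over 13 Calvin cycle genes. With each column scaled to the same sum these medians were 0.92, 0.56 and 0.74. Against single F1 columns the light harvesting median was 2.82, 1.00 and 0.16 for replicates 1, 2 and 3, so F8 lay far above replicate 1 and near replicate 3. The 0 calls rested on that column: without F1 replicate 3, 10 of 18 light harvesting, 6 of 27 photosystem and 9 of 13 Calvin cycle genes were called higher, while without replicate 1 or without replicate 2 there were 0 in each list. Over all genes the higher calls also rose without replicate 3, from 27 to 129, since leaving out a column narrows the range. CAB3, a light-harvesting chlorophyll protein, had 11111 RPKM in F8 and 1096, 4098 and 6698 RPKM in F1. PETC, of the cytochrome b6f complex, had 1325 RPKM in F8 and 246, 431 and 684 RPKM in F1, and came nearest to a call in its list. LHCB4.2 had 660 RPKM in F8 and 159, 464 and 677 RPKM in F1, inside the range. These 58 genes made up 30.1% of the summed RPKM in F8 and 9.28%, 19.8% and 26.3% in the F1 columns, and the part of that share in other results was not tested. Chlorophyll synthesis, 0 of 17 called, had a median of 0.86 with 14 of 17 above every F1 column, beside 28.0% of all genes. The member with the largest difference was PORA, a protochlorophyllide reductase, with 46.3 RPKM in F8 and 8.01, 24.9 and 11.3 RPKM in F1. Starch synthesis, 0 of 12 called, lay above every F1 column in 12 of 12 genes, beside 28.0% of all genes, with a median of 0.62. Starch degradation, 0 of 13, had a median of 0.56. With each column scaled to the same sum, the chlorophyll synthesis, starch synthesis and starch degradation medians were 0.43, 0.19 and 0.12, with -0.42 over all genes. SEX1, a glucan water dikinase of starch breakdown, had 160 RPKM in F8 and 79.8, 71.3 and 113 RPKM in F1.

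Circadian clock genes had 0 of 11 called and a median of 0.21, which was -0.19 with each column scaled to the same sum. PRR5, a repressor in the clock, had 73.6 RPKM in F8 and 16.2, 50.9 and 61.9 RPKM in F1, and GI, a clock and flowering protein, had 45.5 RPKM in F8 and 19.8, 34.1 and 40.2 RPKM in F1. ZTL, a photoreceptor of the clock, had 7.73 RPKM in F8 and 9.75, 11.4 and 10.7 RPKM in F1, below every F1 column. The clock outputs GRP7 and CCR1 lay above every F1 column without a call: GRP7 had 3044 RPKM in F8 and 1144, 1395 and 2609 RPKM in F1. Of the 16 reference genes 0 were called, with a median of 0.39 as deposited and -0.04 with columns scaled to the same sum. No gene was called in the lists of light signalling (7 compared), flowering (5), heat shock and chaperones (8), anthocyanin and trichome (4), chromatin and small RNA (15), lipid transfer and wax (11), reactive oxygen (8), nutrients (8), expansins (7), cell cycle (3) and root (1). Leaving out 1 F1 replicate gave calls in some of the lists with 0. Without replicate 3 they were 1 higher clock output and 2 higher genes each of chlorophyll synthesis, lipid transfer and wax, and reactive oxygen. Without replicate 2 they were 1 higher gene each of chlorophyll synthesis, anthocyanin and trichome, and nutrients, and 1 lower heat shock gene. Without replicate 1 they were 1 higher starch degradation gene and 1 lower expansin. Calls also rose over all genes. The higher calls went from 27 to 41, 79 and 129 without replicates 1, 2 and 3. The lower calls went from 214 to 282, 406 and 249.

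The column of F1 replicate 1 was the most unlike F8. F8 was at least 2-fold above it in 874 genes (8.49%) and at least 2-fold below it in 734 (7.13%). Against replicate 2 the counts were 165 (1.60%) above and 376 (3.65%) below, and against replicate 3 they were 202 (1.96%) and 666 (6.47%). Spearman's rho with F8 across the 10292 genes, which are not independent replicates, was 0.83, 0.92 and 0.89 for replicates 1, 2 and 3. The summed RPKM over 1 transcript a gene was 601905 in F8 and 338538, 437867 and 581907 in F1. F1 columns differed at least 2-fold among themselves in 1500 genes (14.6%), and F8 lay inside their range in 4274 genes (41.5%), above it in 2879 (28.0%) and below it in 3139 (30.5%). Beyond 4-fold outside the range there were 18 lower and 0 higher genes. Values near the threshold were 1.00 for the last gene called lower, SAP7, and 0.996 for the first not called, APS4, as log2 distances outside the range.

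Tested with limma, in which the lone F8 column is assumed to vary like the F1 columns, 0 genes passed an adjusted p of 0.05 in either direction. At an unadjusted p under 0.05 there were 600 lower (5.83%) and 292 higher (2.84%) genes, and the lowest adjusted p was 0.235. An exact two-sided permutation test of 1 column against 3 cannot go below 0.5. Limma and the size rule use the same F8 and F1 values, so an overlap of their calls is no independent check. Without F1 replicate 1, limma called 154 lower genes and 5 higher ones, of which 132 lower and 3 higher were also called by size. Without replicate 2 it called 50 lower and 2 higher, and without replicate 3 it called 0 and 0.

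In all 214 lower genes both alleles stood below their F1 means. The genes were chosen by the sum of the 2 alleles, so this was likely from the choice alone. Of them 94 had both alleles at least 2-fold outside their own F1 range, 70 the A. arenosa allele only, 39 the A. thaliana allele only and 11 neither. For all genes the A. thaliana allele was called lower in 252 (2.45%) and higher in 86 (0.836%), and the A. arenosa allele lower in 285 (2.77%) and higher in 37 (0.360%). PHI-1 was low in both: its A. thaliana allele had 0.72 RPKM in F8 and 11.4, 19.2 and 7.35 RPKM in F1, and its A. arenosa allele had 1.55 RPKM in F8 and 32.2, 47.9 and 27.0 RPKM in F1. AT3G47540 differed by allele, with an A. thaliana allele of 3.50 RPKM in F8 and 10.6, 6.57 and 1.89 RPKM in F1, inside its range, and an A. arenosa allele of 1.23 RPKM in F8 and 99.1, 30.3 and 163 RPKM in F1. XTH24 had its A. arenosa allele at 0 RPKM in F8, against 11.3, 75.2 and 317 RPKM in F1, and its A. thaliana allele at 20.6 RPKM, against 86.6, 103 and 100 RPKM.

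Of the 27 higher genes, 4 had both alleles outside their F1 ranges, 11 the A. arenosa allele only, 7 the A. thaliana allele only and 3 neither. The other 2, RPS5A and AT3G51870, had a lower A. thaliana allele and a higher A. arenosa allele. RPS5A had its A. thaliana allele listed at 0 RPKM in F8, against 26.1, 34.0 and 37.7 RPKM in F1, and its A. arenosa allele at 335 RPKM, against 67.0, 78.2 and 77.8 RPKM. AT3G51870, a mitochondrial substrate carrier, had 1.55 RPKM from its A. thaliana allele in F8, against 6.44, 4.95 and 5.95 RPKM in F1, and 32.6 RPKM from its A. arenosa allele, against 10.0, 11.5 and 6.67 RPKM. In F8 the A. thaliana allele was listed at 0 in 111 of the 10292 genes and the A. arenosa allele in 37.

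**Figure D4:**
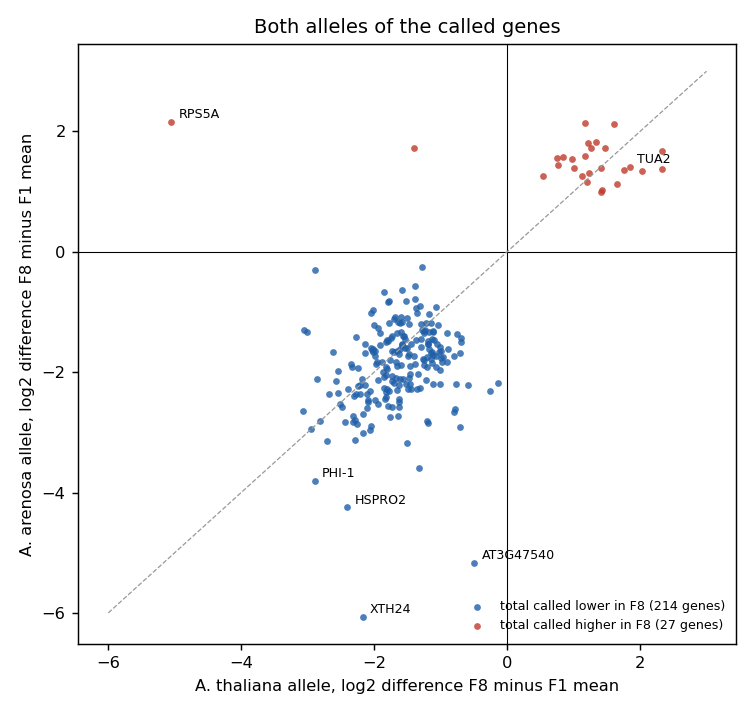
Log2 difference F8 minus F1 mean of the A. thaliana allele (horizontal) and the A. arenosa allele (vertical) for the 214 genes called lower and the 27 called higher, with a dashed line where both alleles differ equally. All lower genes lie in the lower left corner, and 2 higher genes, RPS5A and AT3G51870, lie in the upper left.

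Called genes were spread over the chromosomes. The share called lower was between 1.987% and 2.198% on each of the 5 nuclear chromosomes. In 202 windows of 50 neighbouring genes the median log2 difference of the total lay between -0.20 and 0.22, with at most 4 lower genes in a window. For the A. thaliana allele the window medians lay between -0.30 and 0.26, and for the A. arenosa allele between -0.39 and 0.35.

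A. suecica and the parents give the levels of the called genes side by side with those above. The lower genes had a median of 3.13 on the log2(RPKM + 1) scale in F8 and 3.31 in A. suecica, where 169 of the 214 were listed, against 5.27, 4.82 and 5.14 in the F1 columns. In A. arenosa the median was 4.01, 4.39 and 4.35, and in A. thaliana 4.76, 4.42 and 3.71. These genes were chosen by low F8 and higher F1 values, so the F8 and F1 medians follow from the choice. A. suecica took no part in it, but is set against the same chosen F1 values. The lowest total listed in A. suecica was 2.003 RPKM, and the 45 lower genes not listed there have no part in its median. Of the 169 lower genes listed in A. suecica, 142 stood there below the lowest F1 column, 16 within the F1 range and 11 above it. Of the 10150 compared genes listed there, 2848 stood below, 2572 within and 4730 above. WRKY70 and WRKY54 were among the 11. WRKY70 had 14.5 RPKM in F8 and 209 RPKM in A. suecica, against 95.6, 40.3 and 43.7 RPKM in F1. WRKY54 had 4.32 RPKM in F8 and 43.5 RPKM in A. suecica, against 22.7, 13.1 and 11.1 RPKM in F1. The higher genes had a median of 6.61 in F8 and 5.68 in A. suecica, against 5.18, 5.40 and 4.99 in the F1 columns. All 27 were listed in A. suecica, where 11 stood above the highest F1 column, 5 within the F1 range and 11 below the lowest.

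**Figure D5:**
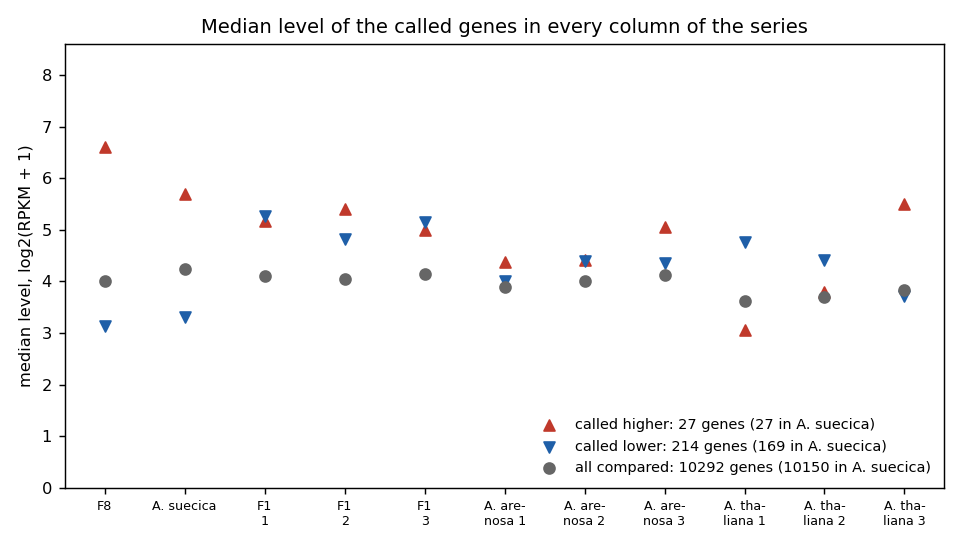
Median level, as log2(RPKM + 1), of the genes called higher (triangles up), the genes called lower (triangles down) and all genes compared (circles) in every column of the series. The 214 lower genes sit at 3.13 in F8 and between 4.82 and 5.27 in the F1 columns. The 169 of them listed in A. suecica sit at 3.31 there. All genes together stay near 4 in each of these columns.

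Transcripts listed for only 1 generation could not be compared. The F1 table alone held 415, of which 100 reached 5 RPKM, 49 of them from genes with no other transcript compared, while the F8 table alone held 36, of which 2 reached 5 RPKM. The lowest total listed in the F8 table was 2.001 RPKM, so a gene under that level in F8 had no entry there. The F1-only transcripts with the highest means included RRTF1, an ERF factor that responds to redox changes, with 46.9, 20.9 and 36.9 RPKM, and FSD1, an iron superoxide dismutase, with 27.4, 18.7 and 16.7 RPKM. The others were AT2G23672, AT3G22600 of the lipid transfer family, AT1G09932 of the phosphoglycerate mutase family and AT2G18680. F8 values of these transcripts were not analysed here.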

How the data were processed

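Per the file headers, the authors deposited RPKM for each transcript: totals of the parents, and the A. thaliana and A. arenosa alleles of the allotetraploids. Per the submitters' processing notes, the genome was TAIR 9; neither the aligner nor how reads were divided between alleles is given in the sources used here. Depth per library is not stated and was not recovered from the RPKM. Alleles were added to a total, and each gene was represented by the transcript with the highest mean. Names and promoters came from TAIR10.1 by gene identifier (10244 of 10292 found). Genes with the larger of F8 and F1 mean under 5 RPKM were left out, and log2(RPKM + 1) was used. limma 3.58.1 in R 4.3.3 was fitted over all genes with a trend and Benjamini-Hochberg adjustment, with F8 assumed to vary like F1 (2 residual degrees of freedom), and tested on simulated data. Python 3.11.15, numpy 2.4.6, pandas 2.3.3 and matplotlib 3.10.9 did the rest.

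Members and the 29 gene lists (479 genes) were chosen with earlier results of these data known. Named genes are the 12 farthest outside the F1 range in each direction with at least 20 RPKM, the 2 highest and 2 lowest of each list, its called members, the 4 largest per allele and direction among called genes, and the 6 highest F1-only transcripts; this gives 138 genes with both values, of which those not called are described only in part. Any other gene was chosen after its values were seen. 1 gene of the rule is not reported here. Alternatives were another pseudocount, filter, scaling, fold, replicate set or transcript choice.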

Additional observations from a re-analysis of the deposited data

How the results depend on the processing

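Size calls, higher and lower, as deposited 27 and 214, moved with several choices. A pseudocount of 5 gave 16 and 126. Scaling to the same sum gave 4 and 446, and centring on the median gave 51 higher (192 lower). A 1.5-fold rule gave 364 and 541, a 4-fold rule 0 and 18, and 2-fold from the F1 mean 232 and 489. All transcripts gave 45 higher. Leaving out F1 replicate 1, 2 or 3 gave 41, 79 or 129 higher and 282, 406 or 249 lower, and all 27 and 214 calls were kept, since the range narrows by construction. For limma, as deposited 0 and 0, scaling to the same sum gave 2 and 313, and leaving out replicate 1, 2 or 3 gave 5, 2 or 0 higher and 154, 50 or 0 lower. A pseudocount of 0.1 and the other filters kept both size counts within 1.5 times; the cause of the changes was not tested. Same-sum scaling, added after seeing the data for lists and named genes, turned the sign of 11 list medians between -0.35 and -0.02, among them the clock and glucosinolate lists. Of 138 named genes, 6 lost a call at a pseudocount of 5, 3 under centring and 11 under same-sum scaling. The 6 were WRKY33, WRKY46, WRKY54, BGL2, JAZ5 and PRE1. The sign of the difference turned in 18 named genes under same-sum scaling (STV1, SS3, HSP81-2, RPL10B and SVP among them), and in 5 each without F1 replicate 1 and without replicate 3, and 0 of these were called genes. No paired analysis was possible because F8 has 1 column. Precision per gene is limited by a depth that was not recovered and by 1 F8 column.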
